A study of Mus musculus with 41 samples.

Results

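The genes described here encode plasma proteins that hepatocytes secrete, and they were followed across every lung and liver array of mice that inhaled nanoTiO2 or air. Members were the spots whose gene name on the array equalled one of 10 symbols (Alb1, Ahsg, Apoa1, Apoa2, Apoh, Ambp, Hp, Hpx, Ttr and Trf). Of these 10 symbols, 9 were found among the 27962 gene names of the array. Hemopexin had no spot named Hpx and was listed under its older symbol Hpxn, so it was matched by its accession and is given beside the 9 others. Each gene had 1 probe, and the Apoa1 probe was printed in 10 spots.

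Female C57BL/6 mice (C57BL/6BomTac in the study's methods) that were time-mated but not pregnant, with an age labelled as equivalent to GD4, inhaled 40 mg/m3 nanoTiO2 according to the labels, a surface-coated rutile powder, for 1 hr per day on 11 days and were killed 5 days after the last exposure. Control mice inhaled air. RNA came from a random part of the lung or liver of single mice, with 7 exposed and 6 control mice in the lung and 7 exposed and 8 control mice in the liver. By the mouse numbers of the labels, 12 mice gave both tissues. The mice were killed by cardiac puncture. Each 2-color array compared the Cy5-labelled RNA of 1 mouse with a Cy3-labelled commercial reference RNA from mouse cell lines, without a dye swap. The value reported for a gene is the log2 ratio of Cy5 over Cy3 unless a channel is named.

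Between 61.3% and 67.5% of the spots of a lung array and between 55.1% and 70.5% of those of a liver array were well above background in Cy5. Arrays at slide positions 1 and 2 were all from exposed mice and those at positions 3 and 4 all from controls, and the effects of position and exposure cannot be told apart. On lung slide 4 both samples were exposed. The number of arrays limits the precision. The methods state that outlying arrays had been removed after clustering.

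Hepatocytes make most of the protein of blood plasma, and albumin mRNA is among the most abundant messages of the liver. The members differ in where else they are made. Haptoglobin (Hp), which binds free hemoglobin, and transferrin (Trf), which carries iron, are known to be transcribed in other tissues too, haptoglobin among them in lung, and transthyretin (Ttr), a carrier of thyroid hormone and retinol-binding protein, is also made in the choroid plexus. Albumin (Alb1), fetuin-A (Ahsg), apolipoprotein A-II (Apoa2), beta-2-glycoprotein I (Apoh), alpha-1-microglobulin and bikunin (Ambp) and hemopexin (Hpxn) are made mainly by hepatocytes, and apolipoprotein A-I (Apoa1), the main protein of high-density lipoprotein, by liver and intestine.

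Liver-enriched factors such as HNF1 and HNF4 are known to drive many of these genes. RefSeq windows of 300 bases around the transcription start (250 bases before, 50 after; GRCm38.p6) were given for 7 of the 10 genes, with 8 windows in all because Apoa2 had more than 1 start. They were searched on both strands for GTTAAT (part of an HNF1 site), CAAAGTC (part of an HNF4 site), the CCAAT box and the TATA box TATAAA. The HNF4 letters were found in 3 of the 8 windows, against 4.44% of all 32851 windows, and the HNF1 letters in 1, against 7.10%. The CCAAT box was found in 6 of the 8, against 37.4%, and the TATA box in 1, against 13.6%. The HNF1 and HNF4 matches are shown with 10 bases on each side, in the direction of the gene, because these are the motifs of liver-enriched factors. Capitals mark the motif, GACTTTG is the HNF4 motif read on the other strand, and the position is that of its first base relative to the start.
Alb, chr5:90460678-90460704, plus strand, position -182: aatgaatggaCAAAGTCttgtgcatgg
Alb, chr5:90460828-90460853, plus strand, position -32: ggtaagtatgGTTAATgatctacagt
Ahsg, chr16:22891833-22891859, plus strand, position -172: gttccaggcaGACTTTGgaatatcttt
Ahsg, chr16:22891865-22891891, plus strand, position -140: cagcagcattGACTTTGgcagatctgt
Hpx, chr7:105600236-105600262, minus strand, position -136: ttttcttttaGACTTTGaccttatttg
These are matches of letters, and binding was not measured.

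The first comparison asked how far lung and liver differ in these mRNAs in control mice. All 10 genes were lower in lung than in liver, and 29.6% of all probes were called lower in this comparison (60% called in either direction; limma, Benjamini-Hochberg adjusted p under 0.05). Every control lung lay below every control liver for each of the 10 genes, as for 19% of all probes, and the exact 2-sided permutation p was 0.000333 for each, the smallest that 3003 splits can give. The smallest difference was that of Hp, with -0.83 ± 0.07 (SE) in the log2 ratio (adjusted p = 7.76e-12), or 1.78-fold. Trf differed by -1.84 ± 0.09 (adjusted p = 8.70e-18), or 3.59-fold. The other 8 ran from -2.45 ± 0.27 for Alb1 to -8.27 ± 0.31 for Apoh.

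The Cy3 channel was not level between the tissues, and for every member but Hp the log2 ratio showed a smaller difference than Cy5 did. The Cy3 brightness of the Alb1 spot lay between 54.5 and 87 on the control lung arrays and between 8959 and 12900 on the control liver arrays, although the reference RNA is labelled the same. In Ahsg it was 71.5 to 91 in control lung and 6742.5 to 9418.5 in control liver. In Cy3 normalized between arrays, 9 of the 10 genes were called lower in control lung than in control liver, against 20% of all probes, and Hp was called higher by 0.23. Of the 401 probes that were more than 5 log2 units lower in lung in Cy5, 385 were called lower in Cy3 as well (96.0%), and the median Cy3 difference was -1.44. The cause was not tested.

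In the Cy5 channel alone, normalized between arrays and added after seeing the data, Alb1 differed by -10.02 ± 0.51 (SE) log2 units between control lung and control liver (limma, adjusted p = 1.91e-16), against -2.45 in the ratio. The difference was -9.50 ± 0.38 for Ahsg, -9.90 ± 0.21 for Apoa1, -10.65 ± 0.31 for Apoa2, -10.37 ± 0.30 for Apoh, -10.87 ± 0.34 for Ambp and -9.46 ± 0.21 for Hpxn. Apoa1 was well above background on 2 and Apoa2 on 4 of the 6 control lung arrays, so their differences are limited by the background. The Cy5 difference was -5.60 ± 0.11 for Trf and -0.60 ± 0.09 for Hp, where 5 of 6 control lungs lay below every control liver. Ttr was not well above background on any control lung array, so that only a bound can be given: its Cy5 signal was at least 82.3-fold higher in liver (measured means of 12.31 and 5.89 log2 units, adjusted p = 7.15e-33). No spot of these genes was saturated.

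A share of the liver signal of the same probe gives the lung level on a linear scale. Net Cy5 signal (median minus local background) was divided by the 75th percentile of its array and set against the median of the control livers. Hp stood at 28.4% to 41.0% on the control lung arrays (median 34.7%) and Trf at 1.14% to 1.62% (median 1.24%). The medians of the other control lung values were 0.0583% for Alb1, 0.0712% for Ahsg, 0.0499% for Hpxn, 0.0202% for Ambp, 0.0157% for Apoh, 0.0137% for Apoa1 and 0.0105% for Apoa2. On the exposed lung array of mouse 1 the same shares were 1.58% for Alb1, 1.02% for Ahsg, 0.398% for Apoh, 0.389% for Hpxn, 0.330% for Ambp, 0.329% for Apoa2 and 0.243% for Apoa1. The lung of mouse 1 had the highest signal of all 13 lungs for each of these 7 genes, and at most 1.58% of the liver signal. Lung and liver were scanned with different software versions, which cannot be told apart from tissue.

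**Figure D1:**
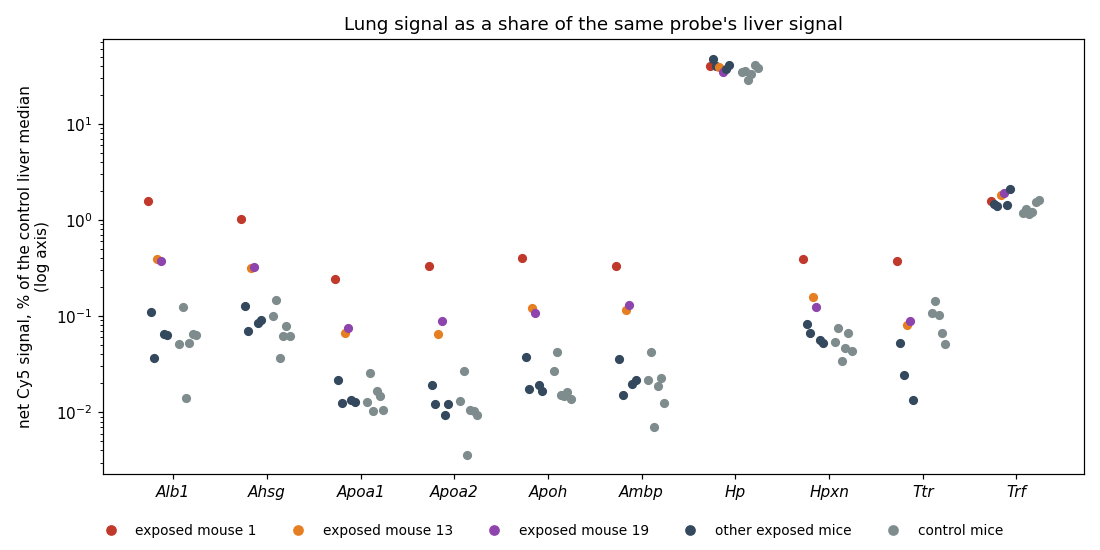
Net Cy5 signal of each lung array as a percentage of the control liver median of the same probe, on a log axis, with 1 point per array and exposed mice to the left of control mice for each gene. Hp lies between 28.4% and 47.5%, Trf between 1.14% and 2.11%, and exposed mouse 1 is the highest lung point for the other 8 genes; 2 Ttr points at or below 0 are not drawn.

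The second question was whether the lung signals were high together in single arrays. For most of the genes they were, in the same exposed mice. Mice 1, 13 and 19 were the 3 highest of the 13 lung arrays for 7 of the 10 genes (Alb1, Ahsg, Apoa1, Apoa2, Apoh, Ambp and Hpxn), and 0.756% of all 41030 probes measured on every lung array had these mice as their 3 highest. Mouse 1 was the highest array for 8 of the 10 genes, against 8.13% of all probes. The 3 mice were picked out from these values, so the counts are a description and no test was made.

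Albumin (Alb1, chr5:90460870-90476602) had log2 ratios from 1.53 through a median of 2.75 to 4.02 on the exposed lung arrays and from 0.84 through 1.98 to 2.70 on the control lung arrays. Mouse 1 had 4.02, mouse 13 had 3.50 and mouse 19 had 3.38. The next values, 2.75 in exposed mouse 7 and 2.70 in control mouse 26, were alike, and the other exposed mice lay among the controls. In brightness the Alb1 spot read 6812.5 in Cy5 on the array of mouse 1, 2484.5 on that of mouse 13 and 2916 on that of mouse 19, and 104.5 to 591 on the 10 other lung arrays. Cy3 was also higher on the same arrays, with 586 in mouse 1, 167.5 in mouse 13 and 170 in mouse 19 against 54.5 to 87 on the others. The Alb1 ratio of these 3 arrays therefore stood less far from the other lungs than Cy5 did.

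Fetuin-A (Ahsg, chr16:22892015-22899451), an inhibitor of calcium phosphate precipitation, ran from 1.83 through 2.50 to 4.04 in exposed and from 1.24 through 1.91 to 2.59 in control lungs. Its 3 highest arrays were again mouse 1 with 4.04, mouse 13 with 3.49 and mouse 19 with 3.38. Cy3 read 293 in mouse 1, 108.5 in mouse 13 and 125 in mouse 19, and 71.5 to 96 on the other lung arrays.

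Ambp (chr4:63143275-63154172), the shared precursor of alpha-1-microglobulin and the protease inhibitor bikunin, ran from 0.44 through 1.12 to 3.88 in exposed and from 0.03 through 0.57 to 1.34 in control lungs. Apoh (chr11:108395297-108414396), a phospholipid-binding plasma glycoprotein, ran from 0.20 through 0.76 to 3.42 in exposed and from 0.06 through 0.26 to 0.77 in control lungs. Both were highest in mouse 1, next in mouse 19 (2.75 and 1.93) and then in mouse 13 (2.56 and 1.85). Their Cy3 spots stayed between 53 and 99 on all 13 lung arrays, whereas Cy5 reached 958 for Ambp and 625.5 for Apoh in mouse 1.

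The high-density lipoprotein genes were highest in the same lungs. Apoa2 (chr1:171221564-171226379) had 3.05 in mouse 1, 1.72 in mouse 19 and 1.35 in mouse 13, and from -0.05 to 0.53 on the 10 other lung arrays. Apoa1 (chr9:46228630-46230469) had 2.08, 1.02 and 0.91 in the same mice and 0.05 to 0.27 on the others. The Apoa1 spots of 1 array agreed closely, with an SD of 0.10 over 9 spots in mouse 1. Apoa1 was well above background in Cy5 on 5 of 7 exposed and 2 of 6 control lung arrays and Apoa2 on 7 of 7 and 4 of 6, so the low values are close to the background.

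Hemopexin (Hpxn, chr7:105591611-105600116), which binds heme, had 2.54 in mouse 1, 1.48 in mouse 13 and 1.38 in mouse 19. It ran from 0.45 to 0.75 in the other exposed and from 0.18 to 0.68 in the control lungs.

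Haptoglobin and transferrin did not have these mice as their 3 highest lungs. Hp (chr8:109575128-109579172) ran from 4.48 through 4.61 to 4.91 in exposed and from 4.38 through 4.69 to 4.74 in control lungs, with its highest value in mouse 7, the next in mouse 1 (4.81), and mouse 19, at 4.49, among the lowest. Trf (chr9:103208876-103230286) ran from 4.09 through 4.38 to 4.48 in exposed and from 4.01 through 4.13 to 4.29 in control lungs, and its highest array was that of mouse 23, followed by mouse 13 (4.42) and by mice 1 and 19 (both 4.38). Mouse 1 was among the 3 highest lungs for all 10 genes. Ttr was well above background on 1 lung array, that of exposed mouse 1, where its log2 ratio was 0.40 and its Cy5 brightness 78 against 61 to 67 elsewhere.

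**Figure D2:**
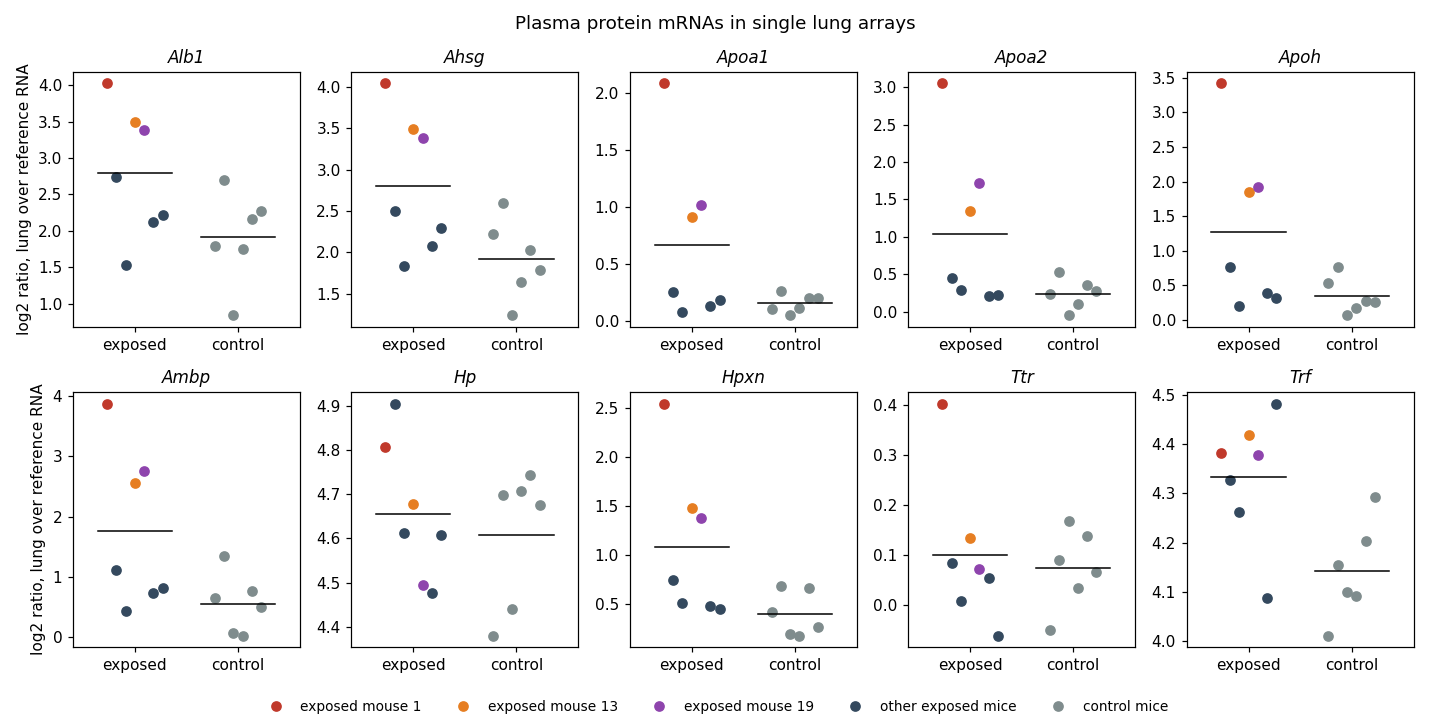
Log2 ratio of Cy5 (lung RNA) over Cy3 (reference RNA) for each gene in the 7 exposed and 6 control lungs, with 1 point per mouse and the group mean as a line; each panel has its own axis. Mice 1, 13 and 19 stand above every other lung for Alb1, Ahsg, Apoa1, Apoa2, Apoh, Ambp and Hpxn, and they do not for Hp and Trf.

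Across the 13 lung arrays, Pearson's r between the 7 genes that were highest in these mice ran from 0.85 to 0.99 over 21 pairs (median 0.96), and Spearman's rho from 0.81 with a median of 0.88. Pairs of 1 of these genes with Hp, Ttr or Trf had r from 0.28 to 0.77 (median 0.53). Within the 6 control lungs the first 21 pairs still had a median r of 0.84, and control mouse 26 was the highest control for all 7 of these genes. The 7 genes were set apart by these same lung values, so a higher r among them than with the others follows in part from that choice. Ttr was well above background on only 1 of the 13 lung arrays. The values share their array, slide and normalization, and the r are given without a test. The ratio of the SD in exposed to that in control lungs was 9.37 for Apoa1, 5.36 for Apoa2 and 4.57 for Apoh. It was 3.38 for Hpxn, 2.67 for Ambp, 1.76 for Ahsg and 1.41 for Alb1, against a median of 0.916 over all probes. Of all probes, 9.52% had a higher ratio than Ahsg and 18.8% a higher one than Alb1. The ratio was 1.89 for Ttr, 1.32 for Trf and 1.01 for Hp. Apoa1 was well above background on 2 and Apoa2 on 4 of the 6 control lungs, which limits their control SD.

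In the test between the groups, none of the 10 genes differed between exposed and control lungs after adjustment over 41172 probes, of which 0.221% were called. At an unadjusted p under 0.05 in limma, 6 of the 10 differed, against 7.09% of all probes. All 10 differences were above 0, with a median of 0.74 against 0.00 over all probes. Ambp was higher by 1.20 ± 0.49 (SE), or 2.30-fold, with means of 1.76 ± 1.30 (SD, n = 7) and 0.56 ± 0.49 (SD, n = 6); the exact 2-sided permutation p was 0.0647 and limma's adjusted p was 0.652. Alb1 was higher by 0.87 ± 0.38 (2.79 ± 0.89, n = 7, against 1.92 ± 0.63, n = 6; exact permutation p = 0.0752, adjusted p = 0.685). Ahsg was higher by 0.88 ± 0.33 (exact permutation p = 0.0490, adjusted p = 0.598), and Apoh by 0.92 ± 0.43 (exact permutation p = 0.0944, adjusted p = 0.704). The differences were 0.80 ± 0.39 for Apoa2, 0.68 ± 0.29 for Hpxn and 0.51 ± 0.26 for Apoa1, with adjusted p-values of 0.707, 0.666 and 0.719 from limma. In each of these 7 genes the exposed group overlapped the controls, and 3 or 4 of 7 exposed mice lay above every control.

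Trf was the member with the most exposed lungs above the controls. It differed by 0.19 ± 0.06, or 1.14-fold, with 5 of 7 exposed mice above every control (exact permutation p = 0.0169, adjusted p = 0.462). Leaving out any 1 array kept the Trf difference between 0.17 and 0.23, but it was 0.054 with the scanner's processed signals and -0.32 with the background model fitted on all spots. Hp differed by 0.05 ± 0.08 (adjusted p = 0.925) and Ttr by 0.03 ± 0.06 (adjusted p = 0.954). In the Cy5 channel alone, Alb1 was higher by 1.58 ± 0.73 (adjusted p = 0.564) and Ahsg by 1.23 ± 0.53 (adjusted p = 0.529), and again none of the 10 was called, against 0.257% of all probes. With the scanner's processed signals Alb1 differed by 0.042 and Apoa1 by 1.39, and with the background model fitted on all spots Alb1 differed by 0.50 and Apoa1 by 0.26. Without mouse 1 the differences were 0.85 for Ambp, 0.68 for Ahsg, 0.56 for Apoh and 0.46 for Apoa2. They were 0.44 for Hpxn, 0.27 for Apoa1 and -0.03 for Ttr. Leaving out any 1 array kept the Alb1 difference at 0.65 or more.

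The same arrays were compared within slides, by the means of exposed and control samples. On slide 1, with exposed mice 1 and 7, the exposed mean was higher for all 10 genes (median difference 1.04). Mouse 7 alone lay below control mouse 26 of this slide for Ahsg (2.50 against 2.59), Apoa1, Apoa2, Apoh, Ambp (1.12 against 1.34) and Ttr. It lay above mouse 26 for Alb1 (2.75 against 2.70), Hp, Hpxn and Trf. On slide 3, with mice 13 and 19, 9 of 10 were higher (median 1.09). On slide 2, with mouse 12, 8 of 10 were higher, with a median of 0.20 and a largest difference of 0.39. Each of these slides held 2 control samples. Blocking on the slide, limma gave an Alb1 difference of 0.94 (adjusted p = 0.269). The highest control for Alb1, Ahsg, Apoa1, Apoa2, Apoh, Ambp and Hpxn, mouse 26, lay on slide 1.

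Other hepatocyte genes were high on the same arrays. Of 54 other plasma protein genes on the array, 38 were highest in mouse 1 and 23 had mice 1, 13 and 19 as their 3 highest lungs. Of 41 hepatocyte enzymes and transporters, 30 were highest in mouse 1 and 20 had the same 3 mice on top. Over all probes, 8.13% were highest in mouse 1 and 0.756% had these 3 mice on top. Both lists were chosen with earlier results of these data known, so the counts are a description. The median difference from the control lung median was 0.82 log2 units in mouse 1, 0.55 in mouse 13 and 0.39 in mouse 19 for the other plasma proteins, and 0.77, 0.40 and 0.33 for the enzymes and transporters. In the remaining 4 exposed lungs both medians lay between -0.07 and 0.09. Mouse 23 was an exception in the summed Cy5 signal of the other plasma proteins, with 0.614% of that of control liver against 0.821% in mouse 1, 0.441% in mouse 13, 0.433% in mouse 19 and 0.173% to 0.305% in the control lungs. The summed Cy5 signal of the enzymes and transporters ran from 0.138% to 0.405% of that of control liver in exposed and from 0.135% to 0.171% in control lungs. In mouse 1, 38 of the 41 enzymes and transporters were well above background, against 17 to 24 in the control lungs.

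Mup1, a major urinary protein, had the largest lung difference among the other plasma proteins (1.32 ± 0.76, adjusted p = 0.746), with 6.01 in mouse 1 against a control median of 2.68, followed by Fgb, the fibrinogen beta chain (1.14 ± 0.52, adjusted p = 0.697), with 4.42 in mouse 1 against 0.83. Among the enzymes and transporters, Asgr2, a subunit of the asialoglycoprotein receptor (0.81 ± 0.10, adjusted p = 0.00179), was the 1 gene of the 41 that passed the test in the lung. Asgr1, the other subunit and in the same list, had a difference of -0.40 ± 0.21, with 0.45 in mouse 1 against a control median of 0.72. Itih4, a chain of the inter-alpha-inhibitor family named after its values were seen (0.54 ± 0.07, adjusted p = 0.00263), was the 1 of the 54. Of all probes, 0.221% were called in this comparison.

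Both lists were lower in control lung than in control liver throughout (54 of 54 and 41 of 41 called, against 29.6% of all probes). None of the 14 liver-enriched transcription factors, 8 alveolar type 2 cell markers, 5 club cell markers, 12 neutrophil and myeloid granule markers, 7 adipocyte markers, 6 red cell markers and 9 heart muscle markers had mice 1, 13 and 19 as its 3 highest lungs. The share over all probes was 0.756%, so a count of 0 is the likely outcome in lists this short. The transcription factors had a median difference from the control median of 0.00 in mouse 1, 0.00 in mouse 13 and 0.06 in mouse 19. Of these, 11 of 14 were called lower in control lung than in control liver (29.6% of all probes). On a lung array, 9 to 11 of the 14 were well above background. Their summed Cy5 signal in control lungs was 28.9% to 34.3% of that of control liver, which limits what this median can show. The alveolar type 2 cell markers were well above background on every lung array. In 8 of 8 they were called higher in control lung than in control liver, with a median difference of 4.62. Of all probes, 60% were called in either direction and 29.6% were called lower. Adipocyte markers varied widely among the lungs, with median differences from the control median of -1.15 in mouse 1, 0.93 in mouse 13, 0.87 in mouse 19 and 1.06 in mouse 23, and 3 of the 7 were highest in mouse 13. The red cell markers had 0.01 in mouse 1, -0.22 in mouse 13 and -0.11 in mouse 19. The heart muscle markers had -0.03, 0.56 and 0.77 in these mice, against 0.69 in control mouse 24, and 5 of the 9 were highest in mouse 19. In bulk tissue a change in the number of cells of a type and a change in RNA per cell cannot be told apart, and the part of other tissue or cells in these values was not tested.

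**Figure D3:**
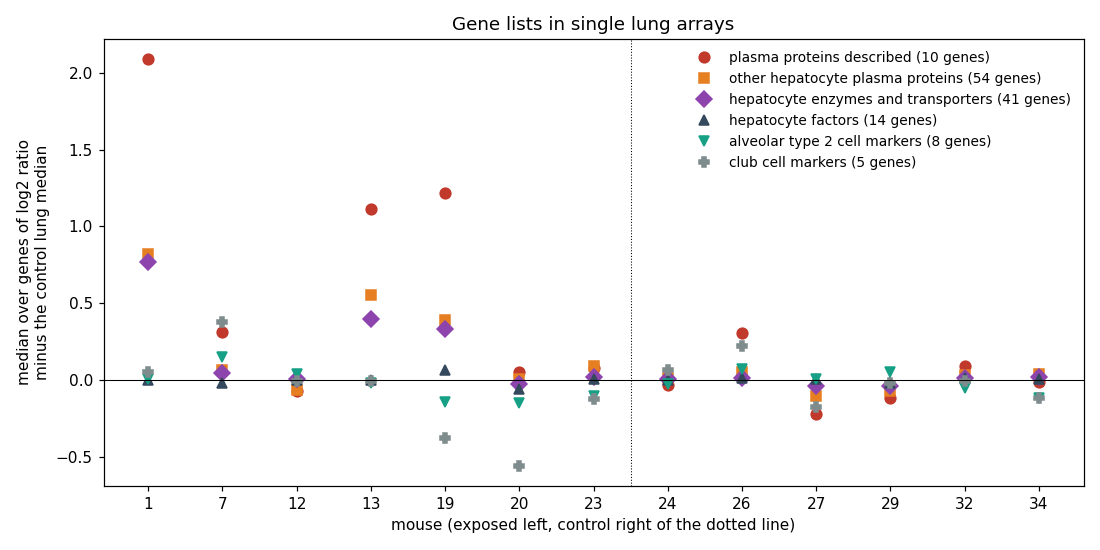
For each lung array, the median over the genes of a list of the log2 ratio minus the control lung median of the gene, with 1 symbol per list and array. The 10 plasma proteins described stand at 2.09 in mouse 1, 1.12 in mouse 13 and 1.22 in mouse 19, the other plasma proteins at 0.82, 0.55 and 0.39 and the transcription factors at 0.00, 0.00 and 0.06.

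All 13 acute-phase genes had a higher mean in exposed lungs, and 4 of the 13 passed the test, against 0.221% of all probes (Saa1, Saa3, C3 and Lcn2). Lcn2 is also in the granule list, Orm1 in that of the other plasma proteins, and Asgr1, below, in that of the enzymes and transporters. The differences were 2.23 ± 0.24 for Saa3 (adjusted p = 0.000308) and 1.70 ± 0.07 for Lcn2 (adjusted p = 2.12e-08). None of the 13 had mice 1, 13 and 19 as its 3 highest lungs, which is also the likely count at the share of 0.756% over all probes. Of 14 receptors and clearance partners of the plasma proteins, none passed the test, with a median difference of -0.01. The 2 with the largest differences were Lcat (0.40 ± 0.37, adjusted p = 0.840), the plasma enzyme that esterifies cholesterol, and Asgr1 (-0.40 ± 0.21, adjusted p = 0.721), the other subunit of the asialoglycoprotein receptor.

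Genes were also ranked by their likeness to Alb1 over the 13 lung arrays, among the 26013 probes that were detected above background on 7 or more of them. Ahsg had r = 0.96 and Ambp r = 0.93, and Trf (r = 0.64) and Hp (r = 0.47) stood far lower. The 10 closest names outside the list were Es1 (r = 0.95), a liver esterase, Fgb (0.94) and Fgg (0.92), chains of fibrinogen, 0610009K11Rik (0.93), an unnamed probe, Fabp2 (0.91), a fatty acid binding protein, Kng1 (0.91), kininogen, Cfi (0.90), complement factor I, Ass1 (0.90), a urea cycle enzyme, and Apoa5 (0.90), an apolipoprotein. All 10 were called lower in control lung than in control liver, against 29.6% of all probes. Es1 had 4.56 in mouse 1, 3.48 in mouse 13 and 3.33 in mouse 19, against a highest control of 2.05, and Fgb had 4.42, 2.87 and 2.79 against 1.92. The range of 0610009K11Rik was small, with 0.15, 0.10 and 0.09 in the same mice against a highest control of 0.04.

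The 2 channels were set against each other for Alb1, Ahsg, Apoh and Hp over all arrays. For Hp, Cy3 ran from 3288.5 to 4691 on the lung arrays and from 1914.5 to 2823.5 on the liver arrays.

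**Figure D4:**
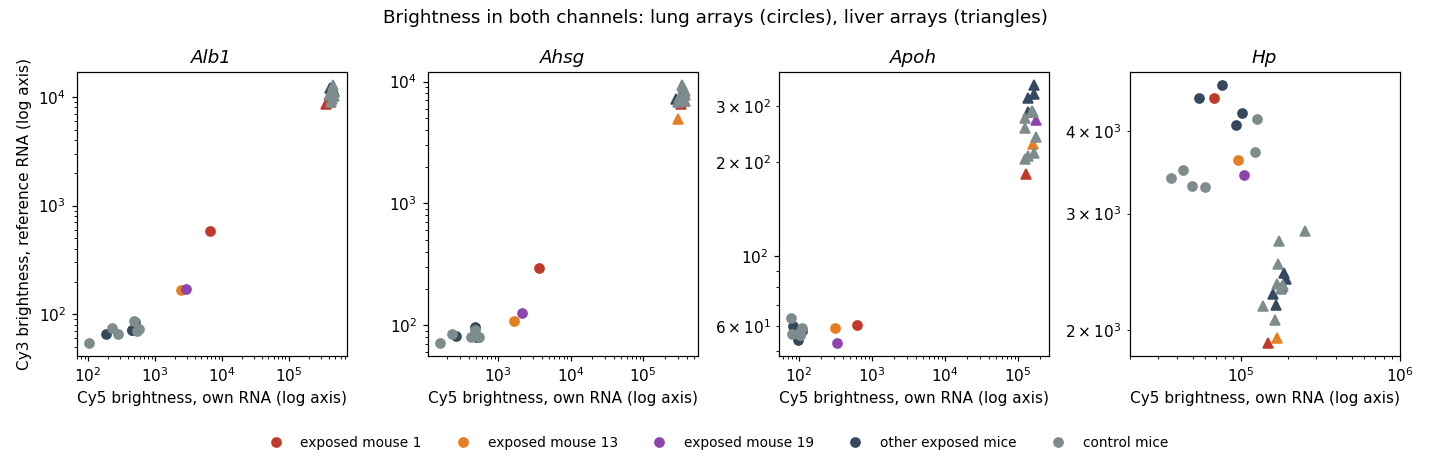
Brightness of 4 spots in Cy5 (mouse RNA) and Cy3 (reference RNA) on all 28 arrays, both on log axes, with circles for lung and triangles for liver arrays. For Alb1 and Ahsg the Cy3 brightness follows the Cy5 brightness, for Apoh the lung arrays stay between 53 and 63.5 in Cy3 while Cy5 differs, and for Hp the Cy3 brightness is lower in liver than in lung.

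The third comparison was that of exposed and control livers. No member and no probe was called (0%; 2.44% of all probes had an unadjusted p under 0.05 in limma). Among the 10 genes, 8 had such an unadjusted p. All 10 genes had a lower mean log2 ratio in exposed livers, with a median difference of -0.21 against 0.00 over all probes. With median centering of the arrays instead of loess the direction turned for 5 of the 10 (Ahsg, Apoa2, Hp, Ttr and Trf). Within liver slides, 9 of 10 genes had a lower mean ratio in exposed samples on slide 5 and 10 of 10 on slides 6, 7 and 8. Alb1 ran from 3.87 through 3.98 to 4.30 in exposed and from 4.18 through 4.34 to 4.51 in control livers. In 5 of 7 exposed livers the Alb1 ratio lay below every control, and those of mice 1 and 23 did not. The difference was -0.33 ± 0.07, with an exact permutation p of 0.00140 and an adjusted p of 1.00 from limma.

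The Cy3 channel moved with this Alb1 difference. In Cy5 alone Alb1 differed by -0.13 ± 0.07 between exposed and control livers (exact permutation p = 0.0897), and in Cy3 alone by 0.20 ± 0.07 (exact permutation p = 0.0270). Apoh likewise differed by -0.33 ± 0.10 in the ratio, by -0.07 ± 0.06 in Cy5 and by 0.26 ± 0.08 in Cy3. Ambp did the reverse, with -0.17 ± 0.08 in the ratio, -0.25 ± 0.05 in Cy5, where each of the 7 exposed livers lay below every control (exact permutation p = 0.000155; 0.0122% of all probes had this in Cy5), and -0.08 ± 0.08 in Cy3. None of these was called by limma after adjustment over all probes. Hpxn differed by -0.27 ± 0.06 in the ratio, without the array of exposed mouse 13, where its spot was marked as an outlier.

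**Figure D5:**
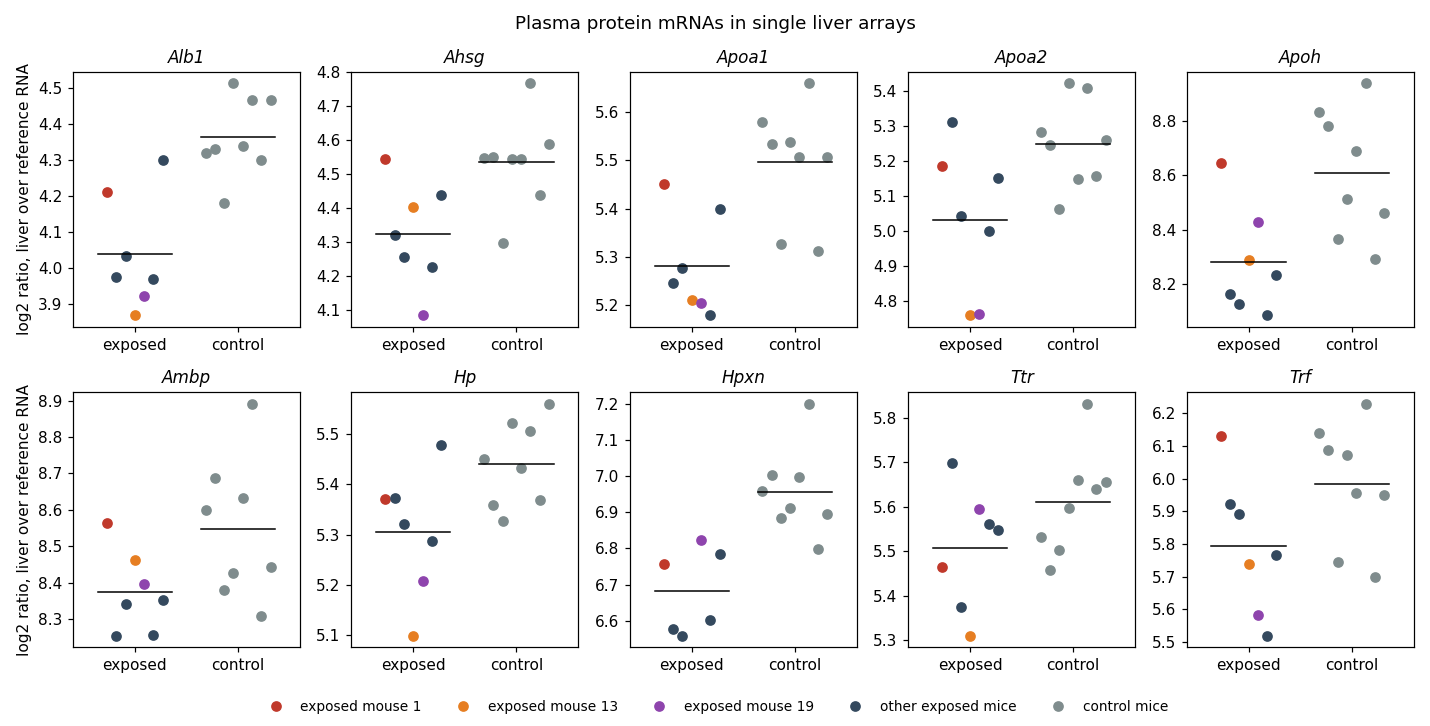
Log2 ratio of Cy5 (liver RNA) over Cy3 (reference RNA) for each gene in 7 exposed and 8 control livers, with 1 point per mouse and the group mean as a line; each panel has its own axis. Group means are lower in exposed livers in every panel, by 0.10 to 0.33 log2 units, and mouse 1, the highest lung array, is among the upper exposed livers for Alb1 and Apoh.

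Among exposed and control livers ranked together, those of the 3 mice were not the highest. Exposed livers had the lower mean for all 10 genes, which limits how high an exposed liver can rank. Mouse 19 was among the 3 lowest livers for 6 of 10 genes and mouse 13 for 5 of the 9 measured in it, mouse 20 was so for 9 of 10, and mouse 1 for none. Mouse 13 had the lowest Alb1 ratio of the livers (3.87) and mouse 19 the next lowest (3.92), whereas mouse 1 had 4.21. Among the exposed livers alone, mouse 1 was the highest for Ahsg (4.54), Apoa1 (5.45), Apoh (8.65), Ambp (8.56) and Trf (6.13). It was not the highest exposed liver for Alb1, Apoa2, Hp, Hpxn and Ttr. Over the 12 mice measured in both tissues, Pearson's r between the lung and the liver ratio ran from -0.34 for Apoa2 to 0.17 for Hp. These r are descriptions over 12 mice of both groups and carry no test. Exposed means were higher in lung and lower in liver for all 10 genes, which limits what r over both groups can show.

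The difference between the exposure effects in lung and liver was above 0 for all 10 genes, and none was called, against 0.146% of all probes. It was 1.19 ± 0.38 for Alb1 (adjusted p = 0.660), 1.37 ± 0.49 for Ambp (adjusted p = 0.901) and 1.25 ± 0.44 for Apoh (adjusted p = 0.871), each from limma. It was 0.18 ± 0.10 for Hp (adjusted p = 1.00).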

How the data were processed

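For 28 mRNA arrays, the deposited intensity values per spot came from the scanner software, not normalized (Feature Extraction 9.5.3.1 for lung, 10.1.1.1 for liver). The authors also deposited a table of log2 ratios, made by LOWESS, which served as an alternative. The miRNA arrays were not used. Groups came from the labels.

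With limma 3.58.1 in R 4.3.3, median intensities were corrected by normexp (offset 50), with the background model fitted without spots marked as outliers, and normalized by loess. Control spots, at weight 0, and marked spots entered no test, and spots were averaged per probe (41174 probes). Groups were compared with lmFit and eBayes, with Benjamini-Hochberg adjustment over all probes, threshold 0.05, lung and liver fitted apart and tissue differences over all 28 arrays. Exact permutation tests used all splits (1716 in lung). The fit was tested on simulated data.

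Every member was named. Of the lists, counts and medians are given, with at most the 2 largest lung differences and any gene called, and the 10 names most like Alb1 were named. The values of 1 listed gene are not reported here. Members and lists were chosen with earlier results of these data known. Mouse numbers pair lung and liver of the same animals, and deviations of same-numbered samples correlated at -0.07 to 0.21 (median 0.08) over 12 mice. Cy5 alone was added after seeing the data.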

Additional observations from a re-analysis of the deposited data

Results flagged for a closer look

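In 1 of 40 groups of arrays tested, 1 sample lay far from the others: Ttr in the lung of exposed mouse 1 had a log2 ratio of 0.40, against 0.13 in the next exposed lung (n = 7). Chance flags about 1 in 20 such groups. The spot was well above background on no other lung array.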

How the results depend on the processing

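No member was called in lung, in liver or in the difference between their exposure effects, and all 10 were called between the tissues, under each alternative tried and without any 1 array. The number of members with mice 1, 13 and 19 as the 3 highest lungs was 7, or 6 with the scanner's processed signals and 8 in Cy5 alone. The gene added in Cy5 alone was Ttr, which was not well above background in mice 13 and 19. With the background model fitted on all spots, whose Cy5 background mean fell to -609 in exposed lung 23, 15 probes were called in lung, and 7 with median centering, against 91. For the difference between exposure effects the counts were 5 and 12, and 35 with the processed signals, against 60. Without any 1 array these counts ran from 70 to 92 and from 47 to 62. Signs turned in lung on all spots for Hp (-0.0055), Ttr (-0.027) and Trf (-0.32). Without any 1 array the lung difference of Ttr ran from -0.025, without exposed mouse 1, to 0.052. In liver signs turned on all spots for Apoh (0.14), Ambp (0.12) and Ttr (0.73), and with median centering for Ahsg (0.0011), Apoa2 (0.00033), Hp (0.059), Ttr (0.039) and Trf (0.020). In the difference of effects they turned for Ttr (-0.75) and Trf (-0.25) on all spots and for Ttr (-0.022) with median centering. The causes were not tested. With mouse number as a replicate block, 23340 probes were called between tissues and 51 in the difference of effects, and no call of a member changed. Low lung values lay close to background, which limits their order.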
